A study of Mus musculus with 14 samples.

Results

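The regions described here are H3K4me2 peaks that were called in one MLL-AF9 leukemia cell line under both of its treatments and in neither treatment of a companion line. H3K4me2, dimethylation of lysine 4 on histone H3, marks promoters and enhancers that are active or poised. It is laid down by the MLL family of methyltransferases, of which MLL1 is a member, and WDR5 is a core subunit that these enzymes share. In leukemia with a rearranged MLL gene, a fusion such as MLL-AF9 is expressed beside the intact MLL1 protein, and the inhibitor MM-401 keeps MLL1 from binding WDR5. H3K4me2 patterns at enhancers are known to differ between cell types.

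A peak of the DMSO H3K4me2 list was taken as MAF9-specific if it lay on an autosome, was at least 500 bp and under 5000 bp wide, overlapped an H3K4me2 peak of the MM-401 list by 1 bp or more, and overlapped no H3K4me2 peak of the EtOH or 4OHT list. The members were therefore chosen on the measured H3K4me2 calls of 4 lists, and their presence in DMSO and MM-401 and absence from EtOH and 4OHT is the rule and not a result. Of 105136 DMSO H3K4me2 peaks, 102640 were autosomal, 47266 of those were in the width range, and 45757 of those overlapped an MM-401 peak and are called eligible below. Of the eligible peaks, 1604 (3.51%, 95% Wilson interval 3.34 to 3.68) were MAF9-specific, out of 532629 peaks in all 10 lists. The members covered 1.28 Mb.

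The MAF9 line is mouse bone marrow transduced with MLL-AF9, and it was given 20 µM MM-401 for 2 days or DMSO as the control. The companion cells, called flox here, were MLL1 flox/flox, ER-cre+/- mouse bone marrow also transduced with MAF9, given 400 nM 4OHT for 2 days to activate the recombinase or EtOH as the control. Both lines thus carried the MLL-AF9 fusion and were grown from bone marrow, and a difference between them cannot be told apart from a difference between the inhibitor and the deletion experiment. The series holds 14 samples, of which 4 are inputs that were not analysed here and 10 are chromatin immunoprecipitations (ChIP) for H3K4me2 and WDR5 in each of the 4 conditions and for MLL1 in DMSO and MM-401. Because MLL1 was not mapped in the flox cells, loss of MLL1 under 4OHT could not be checked from these lists.

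The lists give peak positions on mouse build mm9 with no height, score or read count, so the depth of each library is unknown. There was 1 library per condition and antibody, no test between conditions is possible, and no p-value is given. The intervals are 95% Wilson intervals, which treat peaks as independent and cover counting error only. A peak missing from a list was not called there, which is not the same as absence of the mark. The H3K4me2 lists held 91305 to 105136 peaks, the WDR5 lists 14481 to 41054, and the MLL1 lists 8525 in DMSO and 27345 in MM-401. The DMSO MLL1 list came from another peak caller than the other 9 lists, so the DMSO and MM-401 MLL1 values are set side by side and not compared.

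The MAF9-specific peaks were narrow. Their median width was 700 bp (interquartile range 575 to 900, highest 3475), against 1300 bp for the eligible peaks, and 1305 of the 1604 (81.4%) were under 1 kb. The share of eligible peaks that were MAF9-specific was 11.2% (10.5 to 11.9) at widths from 500 to under 750 bp, 5.53% (5.02 to 6.09) from 750 to under 1000 bp, 1.45% (1.29 to 1.63) from 1000 to under 2000 bp and 0.224% (0.153 to 0.327) from 2000 to under 5000 bp. The rule itself gives a narrow peak fewer bases to be overlapped. At the lower width limit, 130 of 947 peaks of 500 bp and 110 of 875 peaks of 525 bp were members, and just outside it 133 of 955 peaks of 475 bp and 146 of 941 peaks of 450 bp met the rest of the rule. At the overlap limit, 26 eligible peaks failed the rule on a flox overlap of at most 25 bp, while 10 members had a flox peak within 25 bp.

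The MM-401 call at these regions was smaller than at the eligible peaks in general. The median member was covered over 66.7% of its width by MM-401 peaks (interquartile range 41.4 to 87.5), against 91.3% for eligible peaks, and 169 members (10.5%) were covered entirely, against 24.5%. A single MM-401 peak overlapped 1294 of the members. The median width of that partner was 500 bp, against 1450 bp among eligible peaks with a single partner, and it was wider than the DMSO peak at 25% of members and 52.8% of eligible peaks. These values were not split by width, and the members were themselves narrower DMSO peaks (median 700 bp against 1300 bp).

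The distance from members to the nearest flox H3K4me2 call varied widely. The rule forbids overlap with those calls, so the distances describe the members and are not a separate result. The nearest EtOH or 4OHT peak was a median of 10925 bp away (interquartile range 2750 to 38081). It was under 100 bp away at 58 members (3.62%), at least 100 but under 500 bp at 120, under 2000 bp at a further 164, under 10000 bp at 431, under 50000 bp at 494 and under 100000 bp at 143. The last class, 100000 bp or more, held 194 members (12.1%, 10.6 to 13.8). The farthest was a 700 bp peak at chr3:72857401-72858100, 1488775 bp from the nearest EtOH peak and 1489150 bp from the nearest 4OHT peak. A 500 bp peak at chr6:104897751-104898250, wholly covered under MM-401, was 1413200 bp from EtOH and 1412850 bp from 4OHT peaks. A 675 bp peak at chr15:15019726-15020400 was 1324025 bp and 1323550 bp from them.

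The MAF9-specific peaks were more often isolated within their own list than eligible peaks were, although most were not isolated. A peak is called isolated here if the nearest other DMSO H3K4me2 peak of any width was more than 10 kb away. Of the members, 422 (26.3%, 24.2 to 28.5) were isolated, against 10.8% of all eligible peaks and 9.76% (9.48 to 10) of the 42281 eligible peaks that both flox lists overlapped. The median gap to the next DMSO peak was 2588 bp for members and 325 bp for eligible peaks. The rule did not use this distance, but the measure was taken in a list the rule used and is not independent of it. With flox peaks within 2 kb also counted as present, the isolated share was 32.6%.

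The higher share of isolated peaks was present in each of the 3 narrower width classes. It was 27% (24.2 to 30) of members against 12.9% of eligible peaks under 750 bp, 26.6% (22.5 to 31.2) against 13.8% from 750 to under 1000 bp, and 24.5% (19.8 to 30) against 11% from 1000 to under 2000 bp. Of the 26 members of 2000 bp or more, 4 (15.4%, 6.15 to 33.5) were isolated, against 7.05%, and this last interval spans the eligible value. At 100 kb, 38 members (2.37%, 1.73 to 3.23) had no DMSO neighbor, against 0.535% of eligible peaks. The most isolated were the peaks on chromosomes 3 and 15 named above, with gaps of 1489700 bp and 1323625 bp to the next DMSO peak, and a 675 bp peak at chr10:106369651-106370325 with a gap of 866075 bp. Each of these was the single eligible peak of its 1 Mb window. The peak on chromosome 6 named above was far from flox calls but not isolated, with a DMSO peak 125 bp away.

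The opposite set, found in the flox lists alone, was less often isolated than its background. Of 34383 EtOH peaks picked in the same way (autosome, same width range, overlapped by 4OHT), 525 (1.53%, 1.40 to 1.66) overlapped no DMSO or MM-401 peak, and these are called flox-specific. Of them, 25 (4.76%, 3.25 to 6.94) were more than 10 kb from another EtOH peak, against 10.9% of the flox-eligible peaks, and the median gap was 175 bp. The flox-specific peaks were thus less isolated than their own background, whereas the MAF9-specific peaks were more isolated than theirs. The gaps were taken in different lists, with median peak widths of 425 bp in DMSO and 300 bp in EtOH. The flox-specific share was not split by width. The flox-specific peaks were narrow as well, with a median width of 625 bp.

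**Figure D1:**
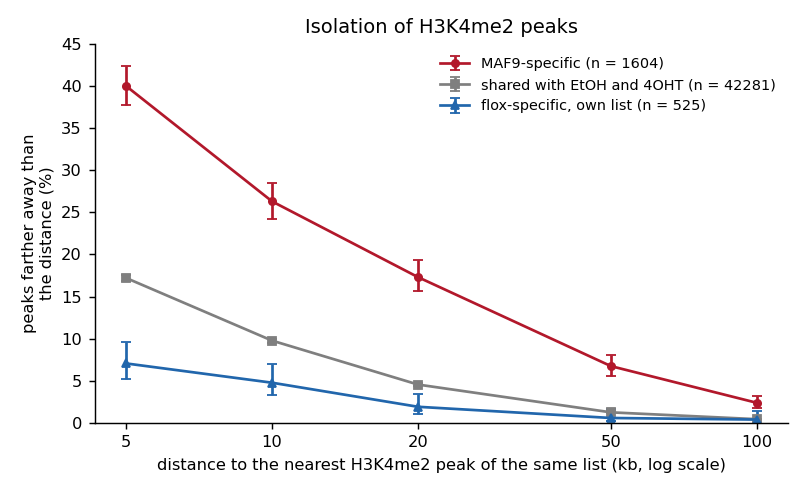
Share of H3K4me2 peaks (y axis, percent) whose nearest neighbor in the same list lay beyond a given distance (x axis, kb, log scale), for MAF9-specific peaks, peaks shared with EtOH and 4OHT, and flox-specific peaks in the EtOH list; bars are 95% Wilson intervals. At 10 kb the MAF9-specific value was 26.3%, the shared value 9.76% and the flox-specific value 4.76%.

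WDR5 peaks, which the rule did not use, were scarce at the MAF9-specific regions. In DMSO, 66 members (4.11%, 3.25 to 5.2) overlapped a WDR5 peak, against 20.9% of eligible peaks, and no member held more than 1, whereas 2.76% of eligible peaks did. Under MM-401 it was 87 members (5.42%, 4.42 to 6.64), against 22.3%. In the flox cells it was 32 members (2.00%, 1.42 to 2.80) in EtOH, against 25.8%, and 31 members (1.93%, 1.36 to 2.73) in 4OHT, against 26.5%. All 4 member shares lay below the background, and at 1435 members (89.5%) no list had a WDR5 peak, against 50.5% of eligible peaks. The rule removed every region with an H3K4me2 call in the flox cells, while both flox lists overlapped 92.4% of eligible peaks. The EtOH and 4OHT shares, and the share with no WDR5 in any list, are therefore not independent of the selection. Low WDR5 content was not particular to the MAF9-specific peaks. Flox-specific peaks overlapped WDR5 at 5.14% in EtOH and 5.33% in 4OHT, against 27.6% and 27.9% of flox-eligible peaks.

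The member shares were also lower within width classes. With DMSO WDR5, the share rose across the 4 width classes from 2.52% to 3.58%, 8.42% and 23.1% in members and from 7.42% to 10.8%, 19.7% and 38.3% in eligible peaks. The member intervals ended below the eligible value in the 3 narrower classes (1.68 to 3.75, 2.14 to 5.92 and 5.68 to 12.3). In the widest class, where 6 of 26 members held WDR5, the interval was 11 to 42.1 and spanned the eligible value. In EtOH and 4OHT the wide members stayed low, with 1 of 26 (3.85%) and 0 of 26 (0%, upper bound 12.9) against 46.7% and 48% of eligible peaks of that width. The limit given above for the flox lists holds here too.

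The WDR5 calls that did occur at MAF9-specific regions recurred more often within the MAF9 line than within the flox line. The rule asked for H3K4me2 in both MAF9 lists and in neither flox list, so this contrast is not independent of the selection. Of the 66 members with WDR5 in DMSO, 37 (56.1%, 44.1 to 67.4) also had it under MM-401, close to the 56.3% among eligible peaks. In the other direction, 37 of the 87 members with WDR5 under MM-401 (42.5%, 32.7 to 53) also had it in DMSO. Of the 32 members with WDR5 in EtOH, 1 (3.12%, 0.554 to 15.7) also had it in 4OHT, against 53.2% among eligible peaks. A further 29 members had WDR5 in DMSO but not MM-401, and 50 had it in MM-401 but not DMSO. WDR5 in DMSO together with either flox list was seen at 6 members. The WDR5 peaks inside members had a median width of 150 bp in DMSO and 175 bp in MM-401, against 125 bp in EtOH and in 4OHT. The whole WDR5 lists had medians of 175, 150, 125 and 125 bp in the same order. Inside eligible peaks the median was 175 bp in each list. Members were also far from WDR5, with a median gap of 44850 bp to the nearest DMSO WDR5 peak, against 12625 bp for eligible peaks.

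MLL1 peaks were scarce as well. In DMSO, 18 members (1.12%, 0.711 to 1.77) overlapped an MLL1 peak, against 6.93% of eligible peaks. In MM-401 it was 44 members (2.74%, 2.05 to 3.66), against 16.3%. Only 1 member had MLL1 in both lists, and 61 (3.8%, 2.97 to 4.85) had it in either, against 20.9%. Of the 18 members with DMSO MLL1, 1 (5.56%, 0.988 to 25.8) also held DMSO WDR5, against 36.5% among eligible peaks with DMSO MLL1. These shares were not split by width, and the groups differed in it. Peaks of 2000 bp or more made up 1 of the 18 members and 1858 of the 3171 eligible peaks with DMSO MLL1. With neither protein called in DMSO or MM-401, 1433 members (89.3%) remained, against 58% of eligible peaks. Flox-specific peaks were also low in MLL1, which was mapped in the MAF9 line only. They overlapped it at 0.952% in DMSO and 1.71% in MM-401, against 7.2% and 16.9% of flox-eligible peaks.

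At narrow widths the MLL1 shares of members and eligible peaks were both low. In DMSO, 7 of 914 members (0.766%, 0.371 to 1.57) under 750 bp wide and 4 of 391 (1.02%, 0.399 to 2.60) from 750 to under 1000 bp held MLL1, against 1.1% and 2.09%, and both intervals include the eligible value. From 1000 to under 2000 bp it was 6 of 273 (2.2%, 1.01 to 4.71) against 5.69%, with an interval ending below it. In MM-401 the member interval included the eligible value under 750 bp (2.52%, 1.68 to 3.75, against 3.1%) and ended below it from 750 to under 1000 bp (1.79%, 0.87 to 3.65, against 6.13%). The 18 DMSO MLL1 peaks in members had a median offset of 20.5% of the distance from H3K4me2 peak center to edge. The value was 34.8% for those in eligible peaks. In MM-401 the corresponding offsets were 52.4% for 44 peaks and 37.8%. These offsets were not split by width of the H3K4me2 peak.

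**Figure D2:**
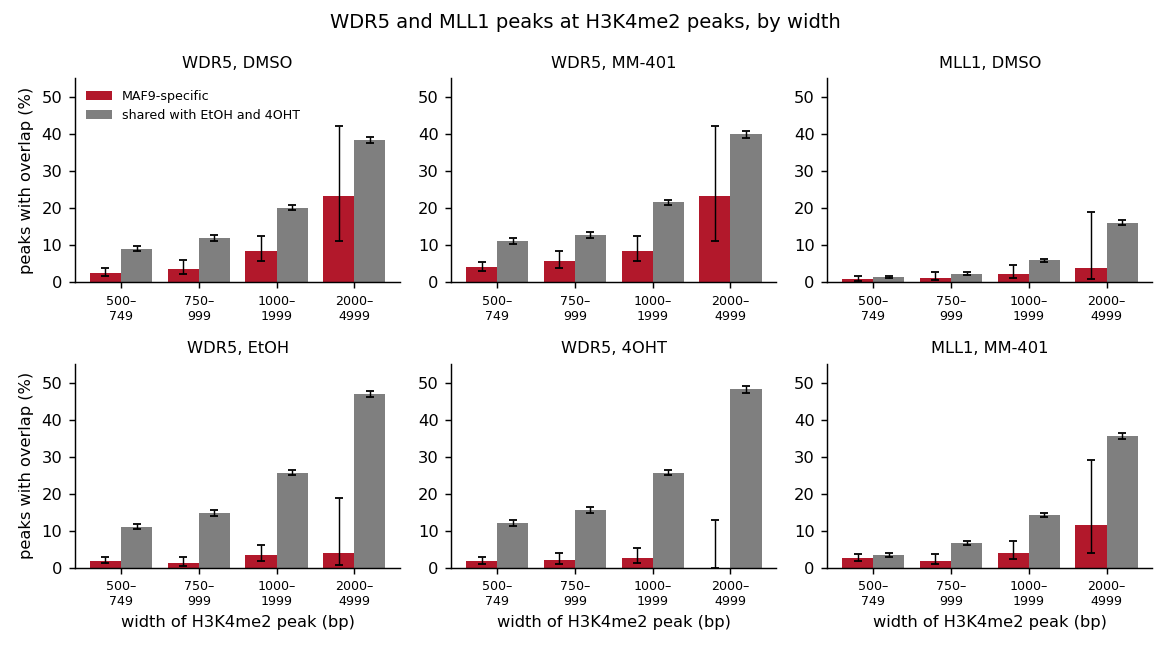
Share of H3K4me2 peaks overlapping a WDR5 or MLL1 peak of each list (y axis, percent) by width of the H3K4me2 peak (x axis, bp), for MAF9-specific peaks and peaks shared with EtOH and 4OHT; bars carry 95% Wilson intervals. MAF9-specific bars were lower than shared bars in every panel and width class, with overlapping intervals for DMSO MLL1 in the 2 narrowest classes and MM-401 MLL1 in the narrowest, and wide intervals in the last class of 26 MAF9-specific peaks.

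Individual members show how these contents were combined. The widest member, 3475 bp at chr15:85493976-85497450, held neither WDR5 nor MLL1, was covered over 94.2% by MM-401 peaks, and lay 25 bp from an EtOH and 700 bp from a 4OHT peak. The 3200 bp members at chr1:163967076-163970275 and chr19:36986001-36989200 also held neither protein, and their nearest flox peaks were 3100 bp and 2525 bp away. A 3150 bp member on chromosome 18 held WDR5 in DMSO and MM-401 and was 78375 bp from the nearest flox peak. A 2925 bp member at chr5:108115276-108118200 held WDR5 in DMSO but not in MM-401.

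The single member with WDR5 and MLL1 in DMSO was a 2375 bp peak at chr7:74798626-74801000. It also held WDR5 under MM-401 but no MLL1 peak there, 86.3% of it was covered by MM-401 H3K4me2, and the nearest flox H3K4me2 peak was 6950 bp away. Among members with DMSO MLL1 the next widest were a 1425 bp peak at chr1:177421751-177423175, with no WDR5 call in any list and the nearest flox peak 130750 bp away, and a 1350 bp peak at chr2:146327801-146329150, which was the single member with MLL1 in both DMSO and MM-401. A 2350 bp peak at chr6:3131676-3134025 held WDR5 in DMSO and MM-401, was wholly covered under MM-401, and had its nearest DMSO neighbor 161375 bp away but flox peaks 17225 bp away.

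The MAF9-specific peaks were spread over every autosome, with the highest share on chromosome 1. Chromosome 1 held 221 of the 1604 members (13.8%) and 7.2% of the eligible peaks, so that 6.71% (5.90 to 7.61) of its 3295 eligible peaks were MAF9-specific, against 3.26% (3.09 to 3.43) on the other autosomes together. The next shares were 5.07% (3.96 to 6.45) on chromosome 18, 4.85% (4.09 to 5.74) on chromosome 9, 4.4% (3.65 to 5.30) on chromosome 3 and 4.34% (3.53 to 5.32) on chromosome 15, whose intervals overlap one another. The chromosome 18 interval also overlaps that of chromosome 1. The lowest were 1.87% (1.47 to 2.39) on chromosome 11 and 2.21% (1.78 to 2.73) on chromosome 2. The interval lay above the overall 3.51% on 5 autosomes, below it on 5 and across it on 9.

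The higher share on chromosome 1 held in 3 of the 4 width classes. It was 22.5% (19.2 to 26.2) against 10.4% on the other autosomes under 750 bp, 12.7% (9.96 to 16) against 5.02% from 750 to under 1000 bp and 2.69% (1.96 to 3.69) against 1.35% from 1000 to under 2000 bp. At 2000 bp and over, 3 members gave 0.33% (0.112 to 0.967) against 0.215%, with overlapping intervals, and over all members of 1000 bp or more the highest share was on chromosome 9 (2.06%). Along chromosome 1 the share took values from 3.49% (1.19 to 9.76) to 10.3% (6.23 to 16.5) in 20 Mb bins. The flox-specific peaks had their lowest share on chromosome 1, 13 of 2307 flox-eligible peaks or 0.564% (0.330 to 0.962), and their highest on chromosome 17 (2.97%, 2.21 to 3.98) and chromosome 9 (2.52%, 1.91 to 3.32).

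The other antibodies of the MAF9 line gave chromosome 1 a large part of their calls as well. Chromosome 1 held 10.8% (10.3 to 11.3) of the autosomal WDR5 peaks in DMSO and 11% (10.5 to 11.4) in MM-401, against 7.85% (7.57 to 8.14) in EtOH and 7.46% (7.21 to 7.72) in 4OHT. It held 11.1% of the DMSO and 10.7% of the MM-401 MLL1 peaks. For H3K4me2 the contrast was smaller, with 7.36% (7.20 to 7.52) in DMSO and 7.44% (7.27 to 7.61) in MM-401, against 6.67% (6.52 to 6.83) in EtOH and 6.81% (6.65 to 6.98) in 4OHT. The DMSO to EtOH ratio of WDR5 shares was 1.37 on chromosome 1 and ran from 0.846 to 1.13 on the others, and the MM-401 to 4OHT ratio was 1.47 against 0.911 to 1.08. Whether this shift bears on the member share of chromosome 1 was not tested.

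**Figure D3:**
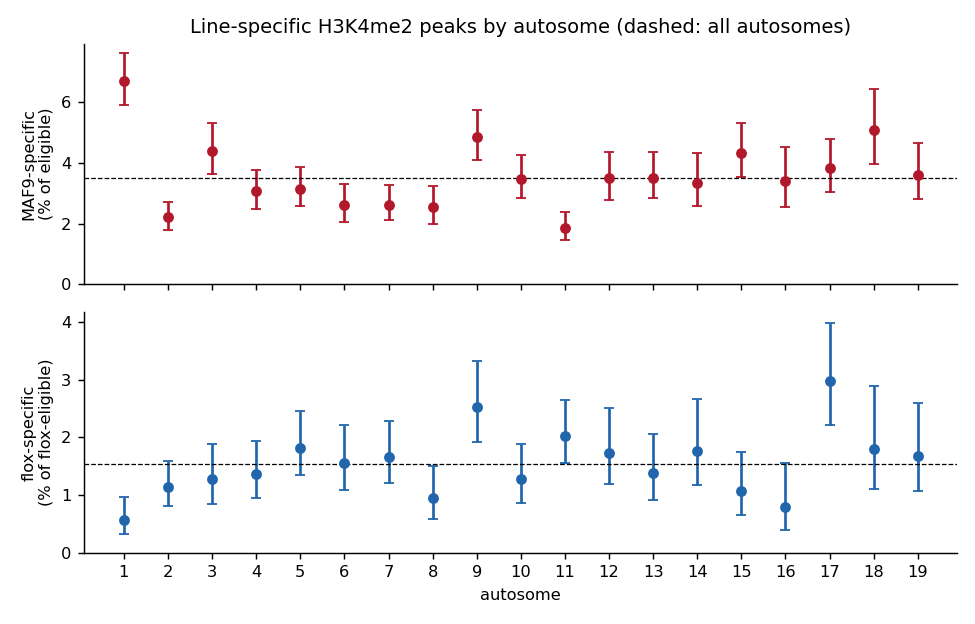
Share of eligible peaks that were MAF9-specific (upper panel) and of flox-eligible peaks that were flox-specific (lower panel), in percent on the y axes, for each autosome on the x axis; points carry 95% Wilson intervals and the dashed lines mark all autosomes together. Chromosome 1 was the highest in the upper panel at 6.71% and the lowest in the lower panel at 0.564%.

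Within chromosomes some members lay near others and some lay alone. When the autosomes were divided into 1 Mb windows and each peak was placed by its center, 909 windows (45.5% of those with an eligible peak) held a member. Of the members, 539 (33.6%) were alone in their window, 661 (41.2%, 38.8 to 43.6) lay in the 168 windows with 3 or more, and 222 (13.8%) lay in the 34 windows with 5 or more. Among members of 1000 bp or more alone, 12.4% lay in windows with 3 or more. The gap between neighboring members had a median of 588125 bp, and 343 of 1585 gaps (21.6%) were 100000 bp or less. These shares depend on how many members are placed and on how unevenly eligible peaks lie. No matching share was computed for eligible peaks, so crowding beyond their density is not shown.

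The member share was highest where eligible peaks were few. It fell from 11.3% (9.22 to 13.7) in windows with 1 to 4 eligible peaks to 6.55%, 5.68% and 3.86% in the next classes and to 2.05% (1.87 to 2.25) in windows with 40 or more. These values were not split by peak width, with which the member share also varied. Members that were the only one in their window, whatever its number of eligible peaks, and members in windows with 3 or more had overlapping intervals for DMSO WDR5, which was called at 17 of 539 (3.15%, 1.98 to 4.99) of those alone and at 31 of 661 (4.69%, 3.32 to 6.58) of those in windows with 3 or more. Of isolated members 15 of 422 (3.55%, 2.17 to 5.78) held DMSO WDR5, against 51 of 1182 (4.31%, 3.30 to 5.63) of the others, and these intervals overlap too.

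**Figure D4:**
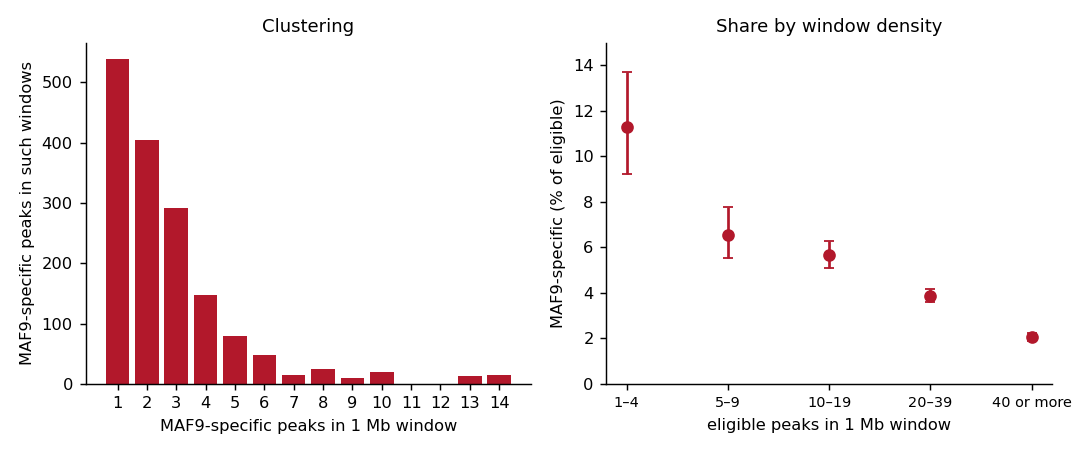
Left, number of MAF9-specific peaks (y axis) lying in 1 Mb windows that hold a given number of them (x axis). Right, share of eligible peaks that were MAF9-specific (y axis, percent, with 95% Wilson intervals) in windows grouped by their number of eligible peaks (x axis), falling from 11.3% to 2.05%.

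The 5 fullest windows lay on 3 chromosomes. The window chr9:40000001-41000000 held 14 members among 57 eligible peaks (24.6%), and chr9:105000001-106000000 held 13 among 24 (54.2%). The windows chr1:92000001-93000000 and chr17:79000001-80000000 held 10 among 36 each (27.8%), and chr1:155000001-156000000 held 9 among 36 (25%). These windows were not empty of flox signal, since the first had 98 EtOH and 90 4OHT H3K4me2 peaks beside 120 in DMSO and 111 in MM-401. Its 2 widest members, of 2275 bp at chr9:40535251-40537525 and 1800 bp at chr9:40538451-40540250, lay side by side with the nearest flox peaks 13625 bp and 10900 bp away. The first held WDR5 under MM-401 and the second held neither protein.

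Counting only eligible peaks in order along a chromosome, 463 members (28.9%, 26.7 to 31.1) had a member as the next peak on at least 1 side and 85 on both sides. They formed 189 runs of 2 or more, 15 of which were 4 or more members long and together held 84 members. For comparison, members made up 3.51% of all eligible peaks, and no share expected from peak density was computed. The longest run, of 11 members in 71175 bp, was at chr9:105666551-105737725. Its members were 500 to 1575 bp wide, 14.3% to 100% covered under MM-401, and 119900 to 190475 bp from a flox peak. WDR5 was called at 2 of the 11 in DMSO, at chr9:105704226-105704750 and chr9:105705926-105706525, and at the second of these under MM-401 also. Over the span of the run there were 20 DMSO and 16 MM-401 H3K4me2 peaks of any width and no EtOH or 4OHT peak.

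Runs of 9 members were found at chr5:112813876-113753625 and chr9:40473751-40540250. The run on chromosome 5 spread over 939750 bp and took in the window chr5:113000001-114000000, in which all 8 eligible peaks were members. Its members were 550 to 2550 bp wide, with the widest at chr5:113298951-113301500, and none held WDR5 or MLL1 in any list. The run on chromosome 9 was compact, at 66500 bp, and it held the adjacent wide peaks named above. In all, 31 windows held no eligible peak other than members, 7 of them with 2 or more members. With 3 or more there were 2, the window on chromosome 5 and chr9:47000001-48000000, with 4 of 4. These runs were singled out after their values were seen.

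Some of these runs lay in long stretches with no flox H3K4me2 peak at all. Around the chromosome 5 run, chr5:112785201-114184575 (1399375 bp) held 37 DMSO and 30 MM-401 H3K4me2 peaks of any width and none in EtOH or 4OHT, although 5 EtOH and 8 4OHT WDR5 peaks fell inside it, against 0 in DMSO and 1 in MM-401. Around the longest run, chr9:105546651-106049025 (502375 bp) held 27 DMSO and 23 MM-401 peaks and again none from flox, with 3 DMSO, 1 MM-401, 2 EtOH and 3 4OHT WDR5 peaks. Across the autosomes, 57 stretches between neighboring flox peaks held 10 or more DMSO H3K4me2 peaks, and 2 held 20 or more, which were those just described. In the opposite direction, 5 stretches between neighboring MAF9 peaks held 10 or more EtOH peaks and 0 held 20 or more. The fullest of those, chr12:93097351-95293325, held 13 EtOH peaks. At 5 or more peaks the contrast was smaller, with 499 stretches holding DMSO peaks and 225 holding EtOH peaks. The counts were not adjusted for the lists, which held 105136 DMSO peaks (median width 425 bp) and 100898 EtOH peaks (300 bp).

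**Figure D5:**
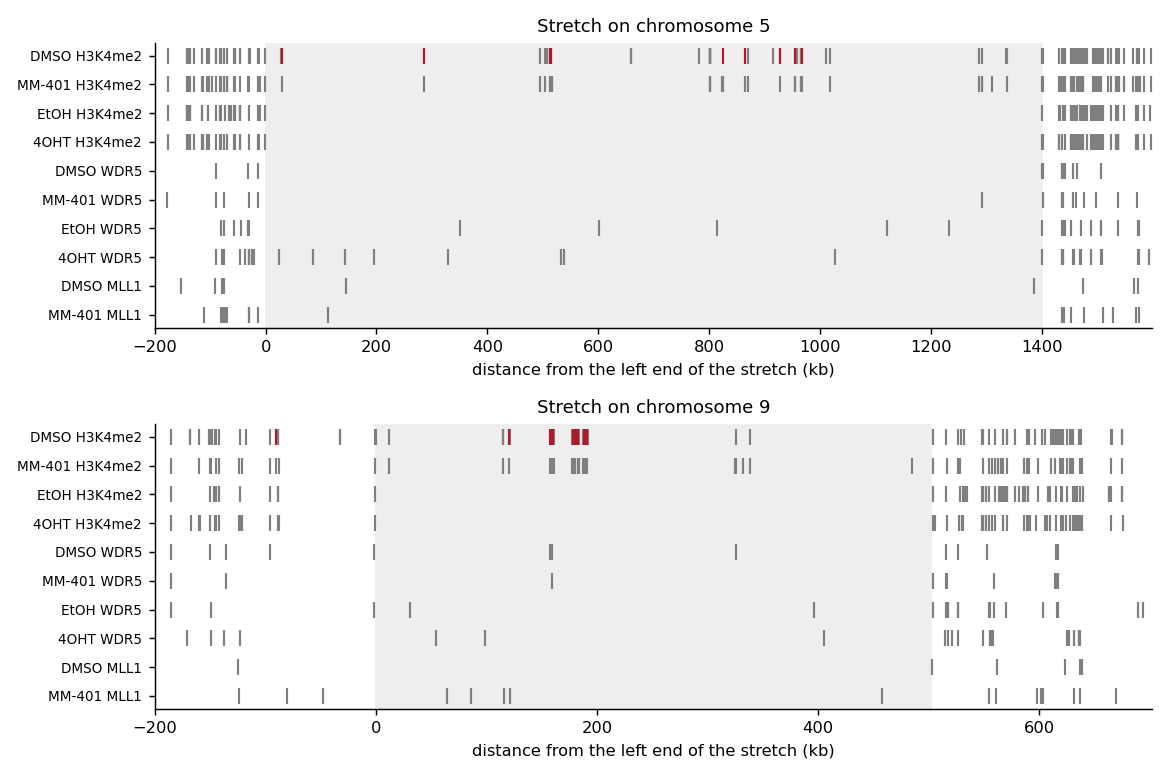
Positions of called peaks in the 10 lists (rows) along the 2 stretches with most DMSO H3K4me2 peaks and no flox H3K4me2 peak, as distance in kb from the left end (x axis); ticks are peak centers, red ticks are MAF9-specific peaks, and the grey area is the stretch. The DMSO and MM-401 H3K4me2 rows hold 37 and 30 peaks in the upper stretch and 27 and 23 in the lower one, and the EtOH and 4OHT H3K4me2 rows are empty there.

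Of the flox-specific peaks, 126 of 525 (24%, 20.5 to 27.8) lay in windows with 3 or more of them, and their longest run was 8. This share depends on how many peaks are placed, so it is not compared with that of the more numerous MAF9-specific peaks. Of the 354 windows that held a flox-specific peak, 191 (54%, 48.7 to 59.1) also held a MAF9-specific one. Among all windows with an eligible peak, the share with a MAF9-specific one was 45.5% (43.3 to 47.7). These shares were not matched for the number of eligible peaks per window, and whether the sets lie together was not tested.

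Peaks of the other patterns put the number of members in context. Among the 47266 DMSO peaks of the width range, 1604 were overlapped in MM-401 alone, against 314 in EtOH alone and 141 in 4OHT alone. Beside the 1604 members, which neither flox list overlapped, 1131 eligible peaks were overlapped in EtOH but not 4OHT and 741 in 4OHT but not EtOH. Starting from MM-401 peaks of the same width, 1278 of 42053 (3.04%, 2.88 to 3.21) were overlapped in DMSO alone.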

How the data were processed

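The deposited files of the authors hold chromosome, start and end positions of called peaks in bp, with no score, signal, count or p-value. Per the submitters' processing notes, reads were aligned with Bowtie to mm9 (versions not given in the sources used here). Peak names and a 25 bp grid identify HPeak for 9 lists, read as 1-based. The DMSO MLL1 list, which the study describes as called with MACS, lacks both and was read as 0-based at its start. Peak calling thresholds other than those of that list are not given in the sources used here.

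Overlaps of 1 bp or more, gaps and 1 Mb windows were computed in Python 3.11.15 with numpy 2.4.6 and plotted with matplotlib 3.10.9. The code was tested on simulated lists, and bedtools 2.31.1 returned the same 1604 members. Eligible peaks served as background. Shares carry 95% Wilson intervals. With 1 library per condition no test was run. The members and lists were chosen with earlier results of these data known. Named peaks are the 5 widest, the 3 widest with WDR5 in DMSO and MM-401 or with DMSO MLL1, the 3 farthest from DMSO or flox peaks, those of the fullest window and of the longest run, and any exception is stated. Input samples, an mm9 genome and gene annotation were not used here, so planned gene assignment and sequences are not given. Alternatives covered the overlap and width rules, list length, seed list, coordinate base, distances and window size.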

Additional observations from a re-analysis of the deposited data

Results flagged for a closer look

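The difference in the share of MAF9-specific peaks with a WDR5 peak had opposite signs in the 2 lines, and in the flox line it rested on 1 member. The MM-401 share was 1.31 percentage points above the DMSO share (87 against 66 of 1604 members), and the 4OHT share minus the EtOH share was -0.0623 percentage points (31 against 32 members). Over all eligible peaks the share was 20.9% in DMSO and 22.3% in MM-401, a rise of similar size, and 25.8% in EtOH and 26.5% in 4OHT. With 1 library per condition the difference between the lines was not tested, the intervals of the 2 member shares overlap within each line, and nothing particular to the members is read from it.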

How the results depend on the processing

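With 17 alternatives giving 65 values, 32 stayed within 1.5 times the reported count or within the interval of the reported share. In each alternative run, the member share with DMSO WDR5 and with DMSO MLL1 lay below the eligible share and the isolated share above it. The cause of the shifts below was not tested.

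With a flox peak within 2 kb counted as present, 32.6% of members were isolated, 33.8% lay in windows with 3 or more, and chromosome 1 had 5.37%. With 50% of the peak covered under MM-401, WDR5 content was 5.29%, isolation 29.1%, clustering 29.4% and the chromosome 1 share 5.16%. A minimum width of 1000 bp left 299 members, with WDR5 at 9.7%, MLL1 at 2.34%, isolation at 23.7%, clustering at 12.4% and the highest chromosome share, 2.06%, on chromosome 9. With absence from EtOH alone, isolation was 24.1%, clustering 52.5% and the chromosome 1 share 9.29%. With lists of equal length isolation was 30.6%. With the widest 50% of each list WDR5 was at 5.62%, isolation at 49%, clustering at 49.4% and the chromosome 1 share at 11.2%. Starting from MM-401 peaks gave 5.71% with WDR5, 30.4% isolated and 35.9% clustered. Reading positions as 0-based gave 38.7% clustered.

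Counting WDR5 or MLL1 within 1 kb gave 5.3% and 2.12% of members. Isolation was 40% at 5 kb and 17.3% at 20 kb, and clustering 25% in 500 kb and 58.2% in 2 Mb windows. Chosen after seeing the data, leaving out chromosome 1 made chromosome 18 the highest at 5.07%, and leaving out windows of 5 or more members gave chromosome 1 a share of 5.47%. No paired analysis was possible because each condition had 1 library and no result comes from a test. The lists carry no depth or peak height, so a weak peak and an absent one cannot be told apart.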
